A study of Mus musculus with 16 samples.

Results

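The material described here is the deposited list of H3K27me3 regions in immortalized mouse embryonic fibroblasts, read across all protein-coding genes and all chromosomes. The members were chosen as every row of the list made from the chromatin immunoprecipitation and sequencing (ChIP-seq) samples whose antibody was anti-H3K27me3. These are 98342 of the 135884 regions in the 3 lists of the series, and they come from 4 of its 16 samples. The other lists hold 26654 regions for H3K4me3, a mark of active promoters, and 10888 for succinyllysine. The 4 samples were 2 of a line with the genotype R26M2rtTA/+;TetOcre;Sdhcfl/fl and 2 of a line with R26M2rtTA/+;TetOcre;Sdhcfl/wt. Both lines carried the doxycycline-dependent activator M2rtTA at the Rosa26 locus and a Cre recombinase under a tetracycline-responsive promoter. In the first line both copies of Sdhc, which encodes an anchor subunit of succinate dehydrogenase, were floxed, and in the control line 1 copy was floxed and the other was wild type. Cells of both lines had received doxycycline at 1 µg/mL and were collected at day 16. They were fixed with formaldehyde, and micrococcal nuclease and sonication were used to break the chromatin. Each genotype is represented by 1 cell line. A single list stands for all 4 H3K27me3 samples. The lines can therefore not be compared, no value has a replicate error, and read depth is unknown. Every value that follows is a description with no test.

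H3K27me3 is the trimethylated form of a lysine in the tail of histone H3. It is written by Polycomb repressive complex 2, whose catalytic subunits are Ezh1 and Ezh2, and it is bound by the Cbx subunits of Polycomb repressive complex 1. In differentiated cells it is known for covering silent genes of other lineages, above all those for developmental transcription factors, and it is erased by demethylases that need 2-oxoglutarate and can be inhibited by succinate.

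The label of the cells was compared with the marks at marker genes, with 18.7% of all protein-coding genes holding an H3K27me3 base. The markers were chosen with earlier results of these data known, so the comparison is not an independent check of the label. None of 16 fibroblast markers, among them Col1a1, Col1a2, Col3a1, Fn1, Vim, Pdgfra, Twist1 and Prrx1, held an H3K27me3 base, and 15 of the 16 held H3K4me3 within the gene. Thy1 had neither. Among 12 epithelial markers 8 had H3K27me3. The splicing regulator gene Esrp1 was covered over 84.0% of its length and the transcription factor gene Grhl2 over 28.1%. The other touched epithelial markers were covered over 8.74% (Ovol1) to 29.8% (Cldn3). Cdh1, Esrp2, Cldn4 and Trp63 had no H3K27me3 base, and of these Cdh1 and Esrp2 held H3K4me3 within the gene. The neuronal markers had H3K27me3 at 6 of 8 genes. Slc32a1, a vesicular GABA transporter gene, was covered over 100% and Rbfox3 over 49.3%, but Syt1, Elavl4 and Snap25 over 0.799%, 1.01% and 4.06%. Rbfox3 and Syt1 are over 200 kb long, and Elavl4 and Snap25 50 to 200 kb. Of all protein-coding genes in those length ranges, 51.9% and 26.6% were touched. The hepatocyte markers had H3K27me3 at 4 of 6 genes (Alb 64.4%, Afp 57.7%, Hnf4a 30.4%). It lay in 3 of 7 pluripotency genes (Lin28a 68.0%, Esrrb 52.5%, Sox2 34.9%), 2 of 8 blood genes (Cd3e 100%, Ptprc 2.30%), 1 of 7 muscle genes (Myod1 61.8%) and 1 of 6 endothelial genes (Cdh5 2.56%). The shares in blood, muscle and endothelial genes are near that of all genes, and the lists are short. Many genes of other lineages had no H3K27me3 base, such as Pou5f1, Nanog, Gata1, Kdr and Ckm. H3K4me3 also lay within 4 of 12 epithelial, 4 of 8 neuronal and 2 of 8 blood genes. It lay within 2 of 7 pluripotency and 1 of 6 endothelial genes, and within 0 of 7 muscle and 0 of 6 hepatocyte genes. Of the 17491 genes with a promoter window, described below, 55.4% had H3K4me3 at a start, which is a narrower measure than H3K4me3 within the gene.

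Genes whose starts lay in H3K27me3 differed widely in sequence, which the following promoters show. The 250 bases before the annotated start are printed 5′ to 3′ on the gene's strand, from RefSeq (GRCm38.p6, the coordinates of mm10), with each CpG in capitals. The genes were chosen after their values were seen, 2 from CpG-rich and 2 from CpG-poor promoters, and all 300 bases of each promoter window (250 before to 50 after the start) were covered. Sox1 (chr8:12395269-12395518, plus strand) encodes a transcription factor of neural progenitors, and its window held 37 CpG. Nkx6-1 (chr5:101664712-101664961, minus strand) encodes a homeobox factor of neural tube and pancreas, and its window held 40 CpG and was also touched by H3K4me3. Alb (chr5:90460620-90460869, plus strand) encodes serum albumin, and Krt77 (chr15:101869706-101869955, minus strand) a keratin of skin. The windows of these last genes held 3 CpG each, and like that of Sox1 they had no H3K4me3.
Sox1: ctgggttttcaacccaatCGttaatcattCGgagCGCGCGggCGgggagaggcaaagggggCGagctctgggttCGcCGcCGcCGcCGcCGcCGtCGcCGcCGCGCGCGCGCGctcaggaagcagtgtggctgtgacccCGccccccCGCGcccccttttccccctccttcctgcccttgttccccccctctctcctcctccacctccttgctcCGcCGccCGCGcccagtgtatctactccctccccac
Nkx6-1: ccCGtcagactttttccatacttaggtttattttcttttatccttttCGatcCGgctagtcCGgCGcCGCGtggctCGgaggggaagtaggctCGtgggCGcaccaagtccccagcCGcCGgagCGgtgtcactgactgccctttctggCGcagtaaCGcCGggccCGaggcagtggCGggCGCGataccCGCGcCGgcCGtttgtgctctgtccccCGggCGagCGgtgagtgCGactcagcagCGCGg
Alb: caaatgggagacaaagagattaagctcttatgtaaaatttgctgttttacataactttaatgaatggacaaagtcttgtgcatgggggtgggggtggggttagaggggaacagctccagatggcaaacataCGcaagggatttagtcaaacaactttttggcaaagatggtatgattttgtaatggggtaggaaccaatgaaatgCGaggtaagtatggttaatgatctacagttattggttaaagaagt
Krt77: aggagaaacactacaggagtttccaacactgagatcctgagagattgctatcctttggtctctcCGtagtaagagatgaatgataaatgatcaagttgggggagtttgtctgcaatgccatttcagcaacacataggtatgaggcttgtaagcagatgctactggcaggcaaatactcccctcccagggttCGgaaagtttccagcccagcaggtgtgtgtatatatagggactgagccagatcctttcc

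The list consisted of many small regions, with a minority of its bases in long ones. It covered 88.4 Mb, or 3.27% of the chromosome spans, with a median width of 600 bp and quartiles of 300 and 1000 bp. Regions of 200 bp, the narrowest class, made up 15.5% of the regions and 3.45% of the bases, and regions of 1100 to 4900 bp held 41.6% of the bases. Regions of 5 kb to under 20 kb numbered 1411 and held 12.8% of the bases, and the 58 regions of 20 kb or more held 1.97%. Regions lay close together. The median gap to the next region was 1200 bp, 47.1% of gaps were at most 1000 bp, and 12789 regions (13.0%) touched the next with no gap. Joining the touching regions gave 85553 runs, of which 114 reached 20 kb, and the longest, of 107100 bp, lay in the Hoxc cluster.

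Chromosomes differed several-fold in coverage. Chromosome 2 was the densest, with 10137 regions over 5.90% of its span, followed by chromosomes 19 (5.49%), 9 (5.21%), 11 (4.72%), 8 (4.22%) and 6 (4.19%). The autosomes together had 3.56% covered. At the low end were chromosomes 16 (1.65%), 18 (2.12%), 12 (2.26%) and 10 (2.54%). Across the 19 autosomes, Spearman's rho of coverage was 0.71 with protein-coding genes per Mb and 0.75 with the share under H3K4me3, both given as descriptions of chromosomes that share the same libraries. Chromosome 7 went against that order, with 14.0 genes per Mb, the highest density, and 3.04% covered. Chromosome 2 had 108 genes covered over at least 50% of their length, 6.06% of its genes, and chromosome 15 had 6.31%, whereas chromosome 16 had 0.884%.

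The X chromosome was covered in another way from the autosomes. It held 3672 regions over 0.805% of its span, with a median width of 300 bp, a widest region of 4100 bp and no region of 5 kb or more. Every autosome had from 23 to 220 regions of at least 5 kb. Some H3K27me3 lay in 162 X-linked genes, 16.8% of them, and 6 of these (0.621%) were covered over at least 50%. H3K4me3 was also lower there than on any autosome, at 0.603% of the span against 1.30% to 3.28%. The Y chromosome had 2 regions with 900 bp in all. The sources used here give neither the sex of the lines nor the number of X chromosomes, and their part in these values was not tested.

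**Figure D1:**
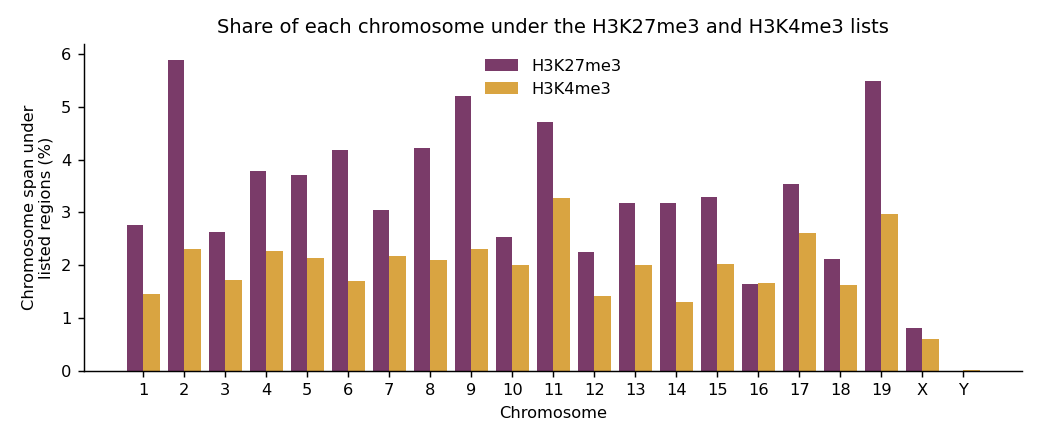
Percent of each chromosome's span (y axis) under H3K27me3 regions and under H3K4me3 regions for chromosomes 1 to 19, X and Y (x axis); each bar is 1 value from 1 list, with no error. Chromosome 2 has the tallest H3K27me3 bar (5.90%), chromosome 16 the lowest among autosomes (1.65%), and X stands at 0.805%.

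Within chromosomes H3K27me3 was concentrated in few places. The median 1 Mb bin had 0.63% of its bases covered and the mean was 3.24%. Of 2732 bins, 279 (10.2%) were covered over at least 10%, and these held 56.6% of all covered bases. No base was covered in 491 bins (18%), of which 80 lay on X and 89 on Y, and 53 bins reached 25%. Bins ran from position 1, so bins before the first listed region or gene of a chromosome are among those with no base. Such bins also enter the median, the mean, the bins with no gene midpoint and the rho values below. Chromosome 2 had the most bins past 10%, 37 of 183, and also the highest share of its bins (20.2%). Chromosome 4 came next by number, with 23 of 157, and chromosome 19 by share, with 10 of 62 (16.1%). Chromosome 16 had 4 of 99, and X had 0 of 171, with a highest value of 8.37%. Bins with no gene midpoint had a median of 0.04% covered and 0 of 337 past 10%. The share past 10% was 3.90% of bins with 1 to 5 genes, 14.9% with 6 to 15, 25% with 16 to 30 and 28.2% with over 30 genes. Over all bins, coverage had a rho of 0.53 with the number of genes and 0.60 with H3K4me3 coverage, although H3K4me3 lay over 0.817% of the H3K27me3 bases.

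**Figure D2:**
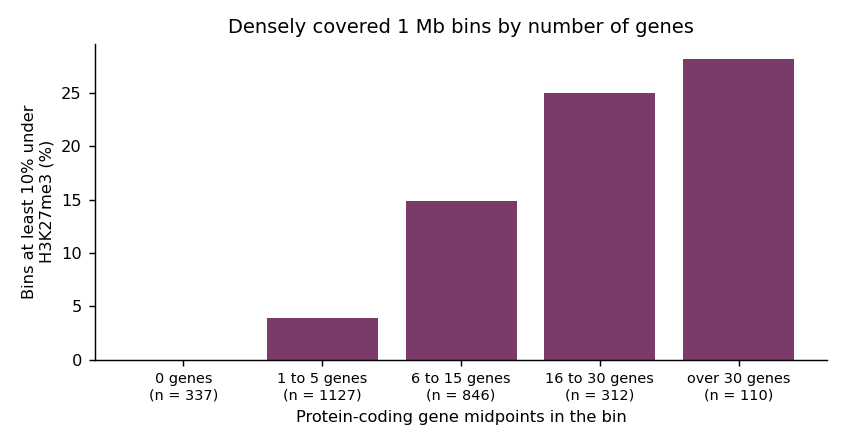
Share of 1 Mb bins with at least 10% of bases under H3K27me3 (y axis, percent) by the number of protein-coding gene midpoints in the bin (x axis, number of bins under each class). No bin without genes passes 10%, and 28.2% of bins with over 30 genes do.

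The 6 densest bins were of different kinds. Values of their genes are for the whole gene, part of which can lie outside the bin. The densest, chr11:96000001-97000000, had 51.0% of its bases covered and contained the Hoxb genes and Skap1, which encodes an adaptor of T cell receptor signalling. H3K27me3 ran over 203631 bp (69%) of Skap1, over 47.4% of Ttll6, a tubulin glutamylase gene, and over all of Hoxb3 and Hoxb6. In chr8:12000001-13000000, with 50.5% covered, only 10.4% of the covered bases lay in protein-coding genes. It held Sox1 (100% covered), A230072I06Rik (100%), Spaca7 (78.0%) and part of Mcf2l (14.1%). In chr9:45000001-46000000 (45.7%), 76.8% of covered bases were genic, with 193668 bp in Dscaml1, a neuronal cell adhesion gene, and 59.2% to 93.2% of BC049352, Tmprss4 and Jaml covered. The bin chr2:75000001-76000000 (45.0%) held Gm50595, with 110127 bp covered, and the upper end of the bin cut through Pde11a, a phosphodiesterase gene with 30.1% covered. In chr9:69000001-70000000 (39.6%), 1.70% of covered bases lay in genes, and the forkhead gene Foxb1 was covered in full while its large neighbour Rora had 0.925%. The bin chr15:101000001-102000000 (39.5%) spans type II keratins with 24 of its 35 genes touched, led by Krt77, Krt90, Krt73 and the sodium channel gene Scn8a, which begins outside the bin (132676 bp in the whole gene).

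Among the 21883 protein-coding genes, 4089 (18.7%) held at least 1 H3K27me3 base, 784 (3.58%) were covered over at least 50% of their length, and 122 (0.558%) were covered in full. A touched gene had a median of 2900 bp covered, 12.2% of its length. Protein-coding genes held 40.6% of all covered bases and 38.2% of the chromosome spans, so the list was spread over genes and the space between them in nearly the same proportion. Both shares varied with gene length. The share touched went from 8.01% of genes under 2 kb to 51.9% of those over 200 kb, and the share covered over at least 50% was highest at 2 to 10 kb (6.31%) and lowest over 200 kb (0.910%).

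The 10 genes with the most covered bases were all long. Grik4, a kainate receptor subunit gene, had 245500 bp covered (57.5% of its length). Rbfox3, the gene for the neuronal nuclear antigen NeuN, had 207897 bp (49.3%), and Skap1 203631 bp. Hydin, a gene of the ciliary axoneme, had 201433 bp (58.7%) and Acoxl, an acyl-CoA oxidase-like gene, 196104 bp (68.2%). Dscaml1 had 193668 bp (59.4%), Dock3, a neuronal guanine nucleotide exchange factor gene, 193130 bp (56.9%), Myo3b, a myosin gene of sensory cells, 190400 bp (48.8%), Cacna1d, a calcium channel gene, 182600 bp (40.5%), and Camta1, a calmodulin-binding transcription activator gene, 173400 bp (21.6%). In all, 36 genes had at least 100 kb covered.

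Genes for developmental transcription factors were covered more often than protein-coding genes as a whole. Of 301 genes in 15 families, 189 (62.8%) were touched and 141 (46.8%) were covered over at least 50%, beside 18.7% and 3.58% of all protein-coding genes. Their median share was 39.9%, beside 0% for all genes. They made up 1.38% of protein-coding genes and 18% of those covered over at least 50%. Their median length of 6.0 kb lies in the length range where that share was highest, but that range as a whole had 6.31%.

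In 7 of the 15 families, apart from Hox, 46.7% to 80% of members were covered over at least 50%. All 5 Zic genes, zinc finger factors of the neural plate, were touched and 4 were covered over at least 50%, including Zic1 (95.2%) and Zic4 (93.8%). Among 9 Pax genes 8 were touched, with Pax2 at 99.9%, Pax5 at 76.0%, which is 141394 bp, and Pax7 at 66.2%. Among 14 Nkx genes 10 passed 50%, led in covered bases by Nkx2-2 (80.9%), Nkx2-5 (100%), the cardiac regulator, and Nkx6-1 (89.1%). Proneural and myogenic bHLH genes passed 50% in 19 of 31 cases, among them Tal1 (98.7%), a regulator of blood formation, Nhlh2 (100%) and Nhlh1 (81.2%). The 65 homeobox genes outside the named groups had 52 touched and 39 past 50%. LIM homeobox genes had 10 of 12 touched and 6 past 50% (Lmx1a 98871 bp, 61.6%). POU genes had 9 of 15 touched and 7 past 50% (Pou2f3 56.7%, Pou3f2 98.9%).

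In the remaining families of the same class, again apart from Hox, 11.1% to 33.3% of members passed 50%. Forkhead genes had 12 of 44 past 50% (Foxa1 83.8%, Foxn4 53.9%) and Sox genes 4 of 19 (Sox17 92.3%, Sox7 59.8%). T-box genes had 3 of 17, with 34203 bp in Tbx20 (63.9%), a heart regulator, and 15.8% of Tbx5. Gata genes had 2 of 6, Gata4 with 72.7% and Gata5 with 98.1%, regulators of endoderm and heart. Iroquois genes also had 2 of 6, Irx4 (96.0%) and Irx6 (97.7%). Genes of the sine oculis homeobox and Eya group had 3 of 10, with Six3 at 97.6% and Six2 at 75.1%. Dlx and Msx genes were mostly free, with Dlx4 (74.5%) the 1 touched gene of 9, and 5 of the 5 with a promoter window had H3K4me3 at a start.

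**Figure D3:**
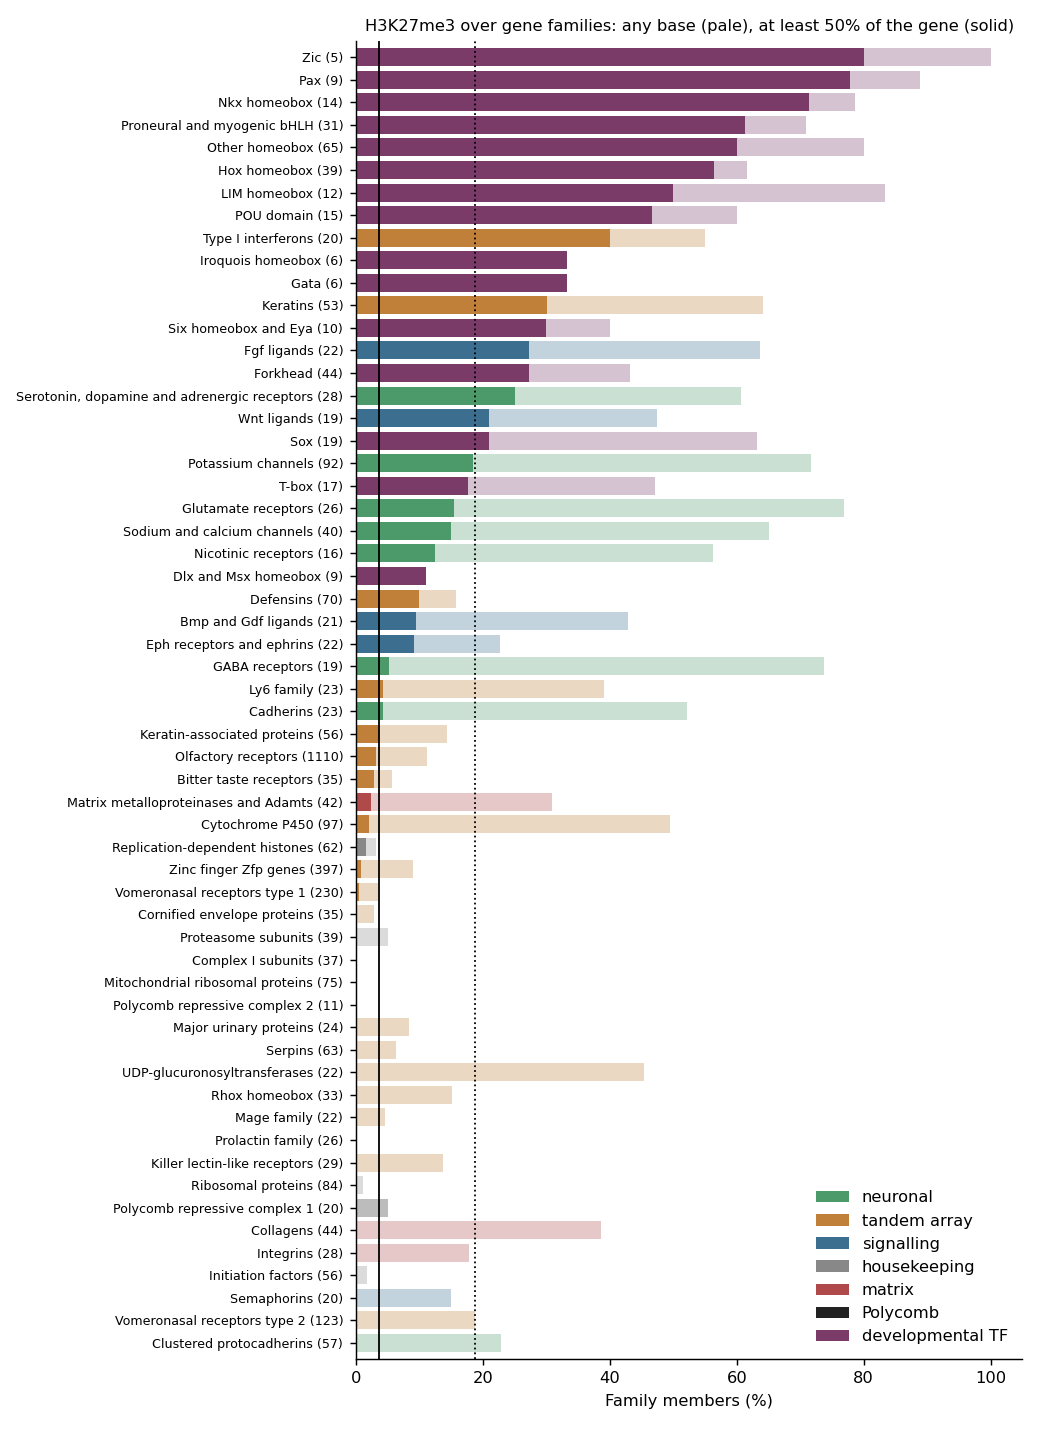
Percent of members (x axis) of each gene family with 5 or more genes (y axis, number of genes in brackets) that have at least 1 H3K27me3 base (pale bar) or at least 50% of their length covered (solid bar), coloured by class; the dotted line marks 18.7% and the solid line 3.58%, the values of all protein-coding genes. Zic, Pax, Nkx and bHLH families have the longest solid bars, and ribosomal, complex I and Polycomb families have solid bars of 0.

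The 4 Hox clusters differed from each other. Hox genes encode homeobox factors that give cells their position along the body axis and the limb. The Hoxa cluster had no H3K27me3 base in its 105.5 kb (chr6:52155367-52260880) and 88.7% of it was under H3K4me3. The Hoxb cluster (chr11:96194316-96368254) was covered over 97.7% and the Hoxc cluster (chr15:102921131-103036856) over 99.8%, with 8.05% and 16.8% under H3K4me3. All 10 Hoxb genes and 8 of 9 Hoxc genes were covered in full, Hoxc6 being the exception at 98.5%. The Hoxd cluster (chr2:74668225-74765142) was divided, with 55.9% under H3K27me3 and 36.0% under H3K4me3.

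Along Hoxd the change came between Hoxd9 and Hoxd3. Hoxd12, Hoxd11, Hoxd10 and Hoxd9 had no H3K27me3 base, Hoxd13 had 26.6% and Hoxd8 had 24.1%. Hoxd3 was covered over 91.2%, Hoxd4 over 100% and Hoxd1 over 81.5%. H3K4me3 covered 100% of Hoxd10 to Hoxd13, 54.7% of Hoxd9, 51.2% of Hoxd8, 3.05% of Hoxd3 and 0% of Hoxd4 and Hoxd1. Evx1 and Evx2, homeobox genes beside the Hoxa and Hoxd clusters, were chosen after their values were seen. Evx1, 52.6 kb from Hoxa13, was covered over 87.7%, and the nearest H3K27me3 region lay 7.52 kb from the cluster on that side and 333 kb on the other. Evx2 was covered over 8.20%, and H3K4me3 covered 100% of it. With 1 list per mark, it is not known whether both occur in the same cells or line.

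**Figure D4:**
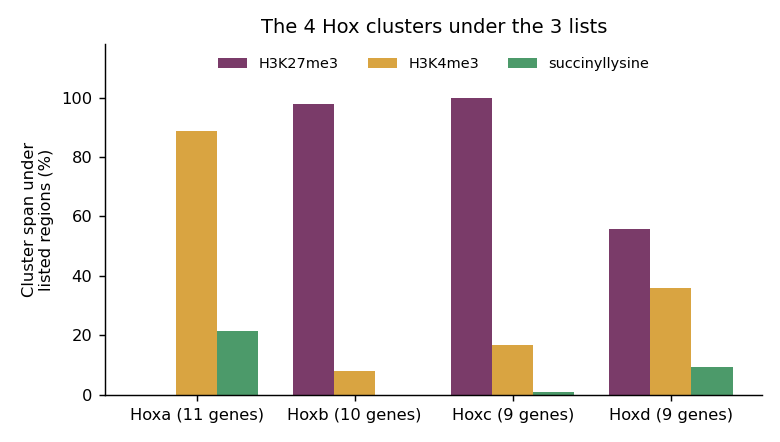
Percent of each Hox cluster's span (y axis) under the H3K27me3, H3K4me3 and succinyllysine lists for the 4 clusters (x axis, number of Hox genes in brackets); each bar is 1 value. Hoxa has H3K4me3 alone of the histone marks (88.7%), Hoxb and Hoxc are nearly all H3K27me3 (97.7% and 99.8%), and Hoxd has 55.9% and 36.0%.

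Signalling families had lower shares than the transcription factors and higher ones than all protein-coding genes. Of 104 genes for ligands, Eph receptors and semaphorins, 40 (38.5%) were touched and 14 (13.5%) passed 50%, beside 18.7% and 3.58% of all genes. Among Wnt genes 4 of 19 passed, with Wnt3a covered over 97.5% and Wnt9b over 66.1%, while Wnt3 had 49.3%. Among Fgf genes 6 of 22 passed, with Fgf20 at 94.4% and Fgf9 at 68.8%, although Fgf9 had H3K4me3 and not H3K27me3 at its start. Bmp and Gdf genes had 2 of 21, including Bmp10 (63.8%), a cardiac ligand, and Eph receptors and ephrins had 2 of 22, Epha8 (70.0%) and Epha10 (58.1%). No semaphorin gene of 20 passed 50%, and the most covered was Sema5b with 45161 bp (36.7%).

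Neuronal genes had higher shares than all protein-coding genes, and they were longer. Of 301 such genes 177 (58.8%) had a base and 38 (12.6%) passed 50%, beside 18.7% and 3.58% of all protein-coding genes. Their median length of 54.5 kb is above the 17.2 kb of all genes. Of all protein-coding genes of 50 to 200 kb, 26.6% were touched and 2.43% passed 50%, and of those over 200 kb 51.9% and 0.910%. The potassium channels had 66 of 92 touched and 17 past 50%, and the most bases lay in Kcnma1 (104510 bp, 14.7%) and Kcnn3 (75394 bp, 49.5%). Cacna2d2, an auxiliary calcium channel subunit gene, was covered over 80.1% and Scn8a over 75.4%. Receptor genes with high shares were Gabrd (87.8%), Chrna4 (85.4%), Htr3b (73.0%), Chrnb4 (68.0%) and Grm4 (55.4%), which respond to GABA, acetylcholine, serotonin, acetylcholine and glutamate. Cdh22, a cadherin gene, had 110500 bp (89.5%), the 1 cadherin of 23 past 50%. None of 57 clustered protocadherin genes passed 50% and 13 were touched, but their spans overlap, so 1 region is counted in several of them.

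Genes in tandem arrays did not share a pattern. Over 19 such families, 342 of 2468 genes (13.9%) were touched, beside 18.7% of all genes. In them 77 genes (3.12%) passed 50%, close to the 3.58% of all genes. The genes of these arrays were short, with a median length of 1.10 kb. Of all protein-coding genes under 2 kb, 8.01% were touched and 3.21% passed 50%, so beside genes of that length the arrays were touched more often. Keratins, the intermediate filaments of epithelia, had 34 of 53 touched and 16 past 50%, with Krt77 and Krt73 at 100% and Krt90 at 94.8%. The array on chromosome 15 had 21 of 26 touched and the one on chromosome 11 13 of 27. Type I interferons, antiviral cytokines, had 8 of 20 past 50%, all of them Ifna genes. Of these, 5 were covered in full, among them Ifna4 and Ifna7, while Ifnb1 had no base. The type I interferon genes have a median length of 0.656 kb, about 1 region. Defensins had 7 of 70 (Defb19 78.7%, Defb23 74.8%).

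The largest family, the olfactory receptors, had 125 of 1110 genes touched (11.3%) and 36 past 50% (3.24%), led by the neighbours Olfr287 (62.9%), Olfr288 (78.0%) and Olfr286 (92.9%). Their median length was 0.95 kb, and of all protein-coding genes under 2 kb 8.01% were touched and 3.21% passed 50%. The prolactin family had 0 of 26 touched. Cytochrome P450 genes had 48 of 97 touched but 2 past 50%, including Cyp3a13 (56%), and UDP-glucuronosyltransferases had 10 of 22 and none. Overlap of gene spans among the UDP-glucuronosyltransferases was not examined, and where spans overlap 1 region is counted in several genes. Type 1 vomeronasal receptors had 8 of 230 touched, cornified envelope genes 1 of 35 (Lce1f), and Zfp zinc finger genes 36 of 397 with 3 past 50%, among them Zfp541 (51.2%).

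Genes that all cells use were nearly free of the mark. Of 353 housekeeping genes 6 (1.70%) had any base, beside 18.7% of all protein-coding genes and 14.5% of those of 2 to 10 kb. The housekeeping genes had a median length of 4.91 kb. Among them, 0 of 75 mitochondrial ribosomal and 0 of 37 complex I genes had a base. The 6 were the ribosomal protein-like gene Rpl32l (44.3%), the proteasome subunit genes Psmb9 (18.9%), of the immunoproteasome, and Psma8 (0.356%), of the testis proteasome, the testis histone genes H2bc1 (59.3%) and H2ac1 (13.4%), and the initiation factor gene Eif4e3 (22.8%). Sdha, Sdhb, Sdhc and Sdhd, the subunit genes of succinate dehydrogenase, had 0 covered bases each. None of 11 genes of Polycomb repressive complex 2 had a base, nor had 19 of 20 of complex 1, the other being Phc2 with 4.78%. Matrix genes had 35 of 114 touched (30.7%) and 1 past 50%, Mmp9 (75.8%), which encodes a gelatinase. Their median length was 47.3 kb. Of all protein-coding genes, 17.1% of those of 10 to 50 kb and 26.6% of those of 50 to 200 kb were touched. Collagen genes had 17 of 44 touched, with the most bases in Col23a1 (61900 bp, 21.0%), Col13a1 (55106 bp, 39.1%) and Col6a4 (36228 bp, 34.0%).

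Genes were also ranked without chosen families. Gene symbols were cut before their first digit, and the 377 stems with 8 or more genes were ranked by the median share covered. The first 10 were Hoxb (100%), Hoxc (100%), Nkx (92.3%), Ifna (87.4%), Pax (66.2%), Kcna (60.1%), Lhx (50.8%), Lcn (37.6%), Gimap (37.4%) and Slfn (26.4%). Kcna genes encode voltage-gated potassium channels, Lcn genes lipocalins, and Gimap and Slfn genes proteins of lymphocytes and interferon responses. All 8 Gimap genes were touched and 2 passed 50%. The median was above 0 for 55 stems, and for 85 stems no member was touched.

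Regions often followed each other in long segments. When regions were joined over gaps of up to 1000 bp, 52031 segments resulted, of which 656 were at least 20 kb wide and held 25.1% of all covered bases, with a median width of 29.2 kb. A developmental transcription factor gene of the 15 families lay in or at 93 of the 656 (14.2%), in 29 of the 104 segments of at least 50 kb and in 10 of the 19 of at least 100 kb. These factors made up 1.38% of protein-coding genes, a share of genes that cannot be set directly against these shares of segments. Wider segments can take in more genes of any kind, and the part of width in the rise from 93 of 656 to 10 of 19 was not tested. A protein-coding gene lay at least 50% inside 251 segments, 237 took in only a smaller part of genes, and 168 (25.6%) overlapped none. The X chromosome had 2 of them. Past the edges of the 656 segments H3K27me3 went on in pieces, at 40.2% to 47.9% of bases from 2 to 20 kb outside. The first kb outside had no H3K27me3 base, since segments end only at gaps of more than 1000 bp. H3K4me3 covered 0.160% to 0.922% of bases in each of the 10 kb inside the edges and 2.55% and 2.68% in the 2 kb outside them. From 2 to 20 kb outside it covered 1.21% to 2.35%, beside 1.86% of the chromosome spans.

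The widest segment, of 278.6 kb (chr19:44583401-44862000), held Pax2, a regulator of kidney and eye, and no other protein-coding gene. Next were the Hoxc segment of 264.4 kb, which also holds the noncoding genes Hotair and Mir196a-2, and the Hoxb segment of 255.1 kb. The following one, of 148.3 kb (chr13:94586101-94734400), overlapped no protein-coding gene. It lay 19.8 kb from Ap3b1 and 54.5 kb from Tbca and held 2 noncoding genes, Gm32305 and Gm32351. Those after it held Lhx1 (144.9 kb), a regulator of kidney and head formation, Rhcg, an ammonia transporter gene, together with Mir9-3 (144.2 kb), Hmx1 (139.4 kb), a homeobox gene of eye and ear, and part of Pax5 (133.3 kb), a regulator of B cells. Listed regions filled from 92.0% (Hmx1) to 99.7% (Hoxc) of the width of these 8 segments. Noncoding and neighbouring genes were named after their values were seen.

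At annotated starts H3K27me3 lay mostly where H3K4me3 was absent. Promoter windows of 300 bp were at hand for 17491 of the genes, 21262 windows in all. H3K27me3 touched 1260 windows (5.93%) of 1121 genes (6.41%), and H3K4me3 touched 11507 windows (54.1%). Both touched 148 windows. Among genes covered over at least 50% with a window, 447 of 599 (74.6%) had H3K27me3 and 88 (14.7%) had H3K4me3 at a start, and among genes with no H3K27me3 base 62.9% had H3K4me3 there. Windows of developmental transcription factors were touched by H3K27me3 in 110 of 243 cases (45.3%), with a median of 17 CpG in the touched ones.

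CpG content separated the windows, and its relation to H3K27me3 depended on H3K4me3. Windows with H3K27me3 alone had a median of 6 CpG, between the CpG-poor Alb and Krt77 promoters and the CpG-rich Sox1 promoter printed above. Windows with both marks had 20.5, with H3K4me3 alone 22, and with neither 3. Over all windows the touched share was 7.16% at 0 to 4 CpG, 8.51% at 5 to 9, 6.37% at 10 to 19, 3.95% at 20 to 29 and 3.20% at 30 or more. In windows without H3K4me3 it was higher in each class than in the one before. The share was 7.52% at 0 to 4 CpG, 11.2% at 5 to 9, 21.1% at 10 to 19, 28.5% at 20 to 29 and 30.4% (78 of 257) at 30 or more. The CpG content was read from the reference sequence, and the number of windows without H3K4me3 was 5717 in the lowest class.

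Around starts, coverage spread far beyond the promoter window. The 1770 starts with no H3K4me3 and 10 or more CpG had 29.9% of bases covered 1 to 2 kb after the start, 25.7% in the kb before it and 22.2% in the kb after it. At 40 to 50 kb on either side they still had 8.89% and 9.91%. The 7985 starts with fewer CpG and no H3K4me3 varied little, from 5.10% to 7.66%. The 11507 starts with H3K4me3 had their lowest value, 1.20%, in the kb after the start, and 4.86% and 3.29% at 40 to 50 kb before and after.

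**Figure D5:**
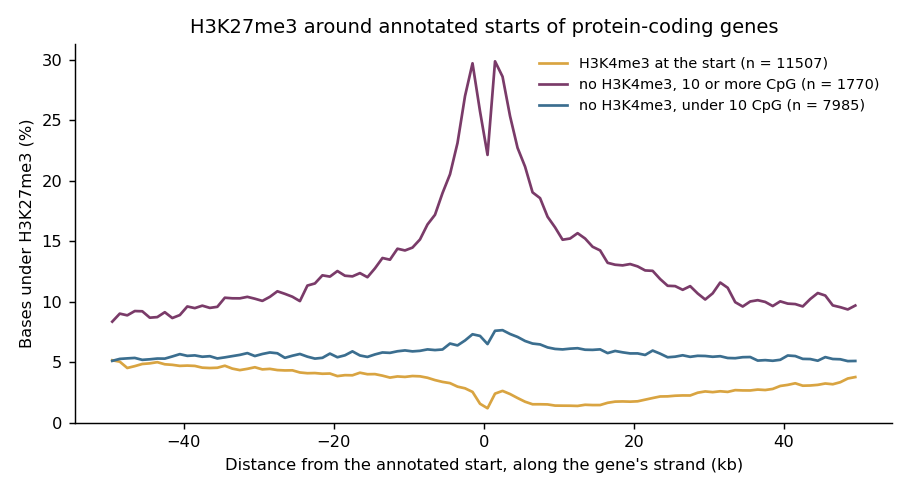
Percent of bases under H3K27me3 (y axis) in 1 kb steps from 50 kb before to 50 kb after annotated starts (x axis, kb along the gene's strand), for starts with H3K4me3, starts without it and with 10 or more CpG in the window, and starts without it and with fewer; each line is 1 value per step. CpG-rich starts without H3K4me3 reach 29.9% beside the start, and starts with H3K4me3 dip to 1.20%.

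Among microRNA hairpins 46 of 1005 (4.58%) had a covered base and 34 were covered in full. That share is not far above the 3.27% of the chromosome spans under the list. Some of the 46 share a run, as Mir9-1 and Gm25641 do, so they are not 46 separate places. The following were chosen after their values were seen, because all or most copies that share a seed were covered, or because copies differed. Mature sequences from RefSeq are printed 5′ to 3′ with the seed (bases 2 to 8) in capitals.
miR-9-5p: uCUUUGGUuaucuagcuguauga
miR-10a-5p: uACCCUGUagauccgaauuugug
miR-10b-5p: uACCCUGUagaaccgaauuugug
miR-196a-5p: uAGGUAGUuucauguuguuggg
miR-196b-5p: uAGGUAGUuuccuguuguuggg
miR-106a-5p: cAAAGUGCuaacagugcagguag
miR-20b-5p: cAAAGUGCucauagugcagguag
miR-17-5p: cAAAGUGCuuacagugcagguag

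The 3 loci of miR-9, a microRNA of neural progenitors, lie on chromosomes 3, 7 and 13, and all 3 hairpins were covered in full, in runs of 5700 bp (Mir9-1), 29400 bp (Mir9-3) and 2100 bp (Mir9-2). The microRNAs of the Hox clusters followed their clusters. Mir10a in Hoxb and Mir10b in Hoxd share the seed ACCCUGU and lay in runs of 98700 bp and 14800 bp. Mir196a-1 in Hoxb and Mir196a-2 in Hoxc were covered in full, whereas Mir196b in Hoxa, with the same seed AGGUAGU, had 0 of 85 bases.

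On the X chromosome the 6 hairpins from Mir363 to Mir106a lay in 1 run of 2800 bp (chrX:52741701-52744500), 5 of them in full and Mir363 over 67 of 75 bases. Their relatives Mir17, Mir18, Mir20a, Mir19b-1 and Mir92-1 on chromosome 14, known for promoting proliferation, had no covered base, and H3K4me3 lay within 1000 bp of each. The seed AAAGUGC is shared by 7 loci, of which Mir106a and Mir20b were covered. Mir375, a microRNA of endocrine cells, lay in a run of 18900 bp. The epithelial microRNAs Mir200a, Mir200b, Mir200c, Mir141 and Mir429 had none. Of microRNAs of muscle, Mir206, Mir133b and the cardiac Mir208a had no covered base, and the cardiac Mir208b was covered in full, in a run of 1400 bp.

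H3K27me3 shared fewer bases with H3K4me3 than the share of the spans under either list, while its overlap with succinyllysine was close to those shares. H3K4me3 lay over 0.817% of the H3K27me3 bases, while it covered 1.86% of the chromosome spans, and succinyllysine lay over 0.312%, while it covered 0.277% of the spans. In the other direction 1.43% of H3K4me3 bases and 3.68% of succinyllysine bases were under H3K27me3, which covered 3.27% of the spans. Of the 656 wide segments 94 (14.3%) touched H3K4me3, over 0.669% of their bases, and 2 touched succinyllysine.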

How the data were processed

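ChIP-seq reads were aligned by the authors with Bowtie2 version 2.2.3 to mm10, per the submitters' processing notes. The deposited lists, 1 per antibody, give a chromosome, a start and an end for each region and no count, height or score. Not given in the sources used here are the caller of the regions, its threshold, and whether input or pooled samples were used. Positions were taken to be 1-based with both ends included, since starts ended in 01 and ends in 00 throughout. The difference between the lines was not analysed here.

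Covered bases were summed per gene, 1 Mb bin and chromosome with Python 3.11.15, numpy 2.4.6 and pandas 2.3.3. Spearman's rho came from scipy 1.17.1 and plots from matplotlib 3.10.9. The sums were tested on simulated data against a count base by base. Genes were the 21883 protein-coding genes of RefSeq GRCm38.p6 on chromosomes 1 to 19, X and Y, from outer end to outer end, with exons not used here. The span of a chromosome was the distance between its outermost listed regions or genes. Promoter windows and microRNA hairpins came from RefSeq tables and cover part of the genes (17491 of 21883 for promoters).

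The genes and families were chosen with earlier results of these data known. Families were symbol patterns, and 1 pattern, that of the linker histones, was corrected after the files were opened. Named genes were up to 3 members of each family and 4 genes of each of the 6 densest bins by covered bases, the genes at least 50% inside the 8 widest segments, the 10 genes with the most covered bases, the Sdh subunits and the cell type markers. Other Hox genes, Ifnb1, the microRNAs and the genes pointed out in the text were named after their values were seen. Alternatives were joining regions over gaps of up to 1000 bp, regions wider than the median, autosomes, genes with 1000 bp on each side, other thresholds, bins shifted by 500 kb or of 500 kb, and limits on gene length.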

Additional observations from a re-analysis of the deposited data

How the results depend on the processing

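The share of the chromosome spans covered was 3.27% as deposited, 3.82% with regions joined over gaps of up to 1000 bp, 2.47% with regions wider than the median and 3.56% on autosomes. Chromosome 2 was the densest in each of these settings, at 6.79% with joined and 4.78% with wider regions. Genes covered over at least 50% numbered 784, and at thresholds of 25% and 75% there were 1423 and 412. Among genes of 10 to 50 kb, 17.1% were touched (18.7% of all) and 2.87% passed 50% (3.58% of all). The counts of genes touched (2848 to 4391), of genes past 50% under the other settings (684 to 973) and of dense bins (202 to 348) stayed within 1.5 times. With members of 2 to 100 kb alone, the count past 50% moved by more than that in 7 of 38 families, among them the type I interferons, which fell outside that length. Wide stretches depend on joining, with 114 runs but 656 joined segments of at least 20 kb. No paired analysis was possible because each list holds no values per sample. The depth behind a region is unknown, so an uncovered gene was not listed, which does not show that the mark was absent.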

Other observations

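Long noncoding RNA genes were touched in a slightly higher share than all protein-coding genes (18.7%), and they were shorter. Of 12727 such genes 2729 (21.4%) had an H3K27me3 base and 636 (5.00%) were covered over at least 50%, with a median length of 8429 bp. Of protein-coding genes of 2 to 10 kb, 14.5% were touched and 6.31% passed 50%. Pseudogenes, with a median length of 910 bp, had 713 of 9944 touched (7.17%) and 267 (2.69%) past 50%. Those shares are near the 8.01% and 3.21% of protein-coding genes under 2 kb. Small nucleolar RNA genes had 26 of 1340 (1.94%) touched, and tRNA genes 9 of 408 (2.21%), with median lengths of 130 and 72 bp. These classes overlap protein-coding genes in places, and the files do not tell which of 2 overlapping genes a region belongs to.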
